A study of Mus musculus with 3 samples.

Results

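The T-box genes described here are 10 members of a family of transcription factors: *Tbx1*, *Tbx2*, *Tbx3*, *Tbx4*, *Tbx5*, *Tbx6*, *Tbx15*, *Tbx18*, *Tbx20* and *Tbx22*. They were chosen by gene name in GENCODE M21, and each name matched 1 of the 55401 genes counted. Their RNA was counted in 3 bulk RNA-Seq libraries of maxillary processes from E10.5 mouse embryos, all of the genotype *wnt1cre; Rosa26Dlx2/-* (OE replicates 1, 2 and 3). In these embryos Cre under *wnt1* control switches on a *Dlx2* transgene, driven by the CAG promoter and carrying a 3xFlag tag at *Rosa26*, in cells of neural crest origin. Epithelium, muscle precursors, vessels and blood of the maxillary process do not arise from that lineage, so the dissected tissue mixed cells in which the transgene was switched on with cells in which it was not. Every library carried both alleles. Wild-type tissue was not analysed here. All values are therefore levels in OE tissue and their spread between libraries, and no effect of *Dlx2* was tested. The labels name 3 independent RNA samples, without saying how many embryos went into each.

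T-box proteins share a DNA-binding domain, the T-box, and act as dosage-sensitive regulators of organ formation. TBX2 and TBX3 act mainly as repressors, often downstream of BMP signals, while TBX5 is best known as an activator in the heart. In the face, *Tbx1* is active in pharyngeal mesoderm and oral epithelium and is the main gene of the human deletion syndrome with cleft palate and heart defects named after DiGeorge, and *Tbx22* is the gene of X-linked cleft palate with ankyloglossia. *Tbx15* and *Tbx18* belong to a closely related subgroup that is active in limb, somite and skin mesenchyme.

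Libraries held 36544554, 35351031 and 40057435 counts on genes in replicates 1, 2 and 3. Counts were divided by these totals after TMM scaling to give counts per 1000000 (CPM), and levels of different genes were compared only as CPM per kb of exons. For a gene at 0, a limit of 3 counts corresponds to 0.0777, 0.0843 and 0.0796 CPM in replicates 1, 2 and 3, which covers counting error only. The neural crest mesenchyme markers fixed for this tissue (*Prrx1*, *Prrx2*, *Twist1*, *Alx1*, *Alx4*, *Pdgfra* and *Snai2*) were present in every library, with summed levels of 1392, 1442 and 1461 CPM. *Dlx2* was at 206 ± 26.7 CPM (SD, n = 3). Replicate 3 had higher values for short and GC-rich transcripts and lower values for long and GC-poor ones, and values with that trend removed are given for the T-box genes whose range or order it moved. Replicate 1 held *Xist* at 671 CPM and no counts of 4 Y-linked genes, while replicates 2 and 3 held *Xist* at 0.309 and 0.557 CPM, so the sex of the tissue differed between the libraries.

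Promoter sequences in the RefSeq set (GRCm38.p6) were found for 6 of the 10 genes: *Tbx1*, *Tbx4*, *Tbx6*, *Tbx18*, *Tbx20* and *Tbx22*. The 250 bases upstream of a start site are shown for *Tbx1*, *Tbx18* and *Tbx22*, because *Tbx1* and *Tbx22* are the cleft palate genes of the family, *Tbx18* and *Tbx22* departed in opposite directions in replicate 1, and the stretches differ in CpG content. Capitals mark CG dinucleotides, 10 in *Tbx1*, 15 in *Tbx18* and 1 in *Tbx22*. The *Tbx1* stretch is chr16:18590672-18590921 on the minus strand, that of *Tbx18* is chr9:87731261-87731510 on the minus strand, and that of *Tbx22* is chrX:107667714-107667963 on the plus strand.
Tbx1: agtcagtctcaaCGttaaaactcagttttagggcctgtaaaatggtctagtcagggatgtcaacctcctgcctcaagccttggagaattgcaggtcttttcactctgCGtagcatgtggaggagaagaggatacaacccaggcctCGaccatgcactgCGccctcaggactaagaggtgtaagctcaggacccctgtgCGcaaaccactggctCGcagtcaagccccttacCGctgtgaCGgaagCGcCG
Tbx18: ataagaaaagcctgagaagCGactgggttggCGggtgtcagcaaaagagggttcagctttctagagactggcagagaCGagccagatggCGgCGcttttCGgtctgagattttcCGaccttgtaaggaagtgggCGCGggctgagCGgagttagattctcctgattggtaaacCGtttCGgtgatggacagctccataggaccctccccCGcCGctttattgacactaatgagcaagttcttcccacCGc
Tbx22: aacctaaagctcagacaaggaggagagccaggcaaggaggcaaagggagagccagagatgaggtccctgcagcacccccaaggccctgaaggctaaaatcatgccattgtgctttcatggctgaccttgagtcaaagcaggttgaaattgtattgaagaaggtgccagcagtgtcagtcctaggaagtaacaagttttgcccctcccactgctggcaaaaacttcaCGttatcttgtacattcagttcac
Over windows from 250 bases before to 50 bases after the start, the ratio of observed to expected CG was 0.633 for this *Tbx1* start, 0.729 for its other start, 0.755 for *Tbx18*, 0.745 for *Tbx20*, 0.286 for *Tbx6*, 0.314 for *Tbx4*, and 0.0520, 0.109 and 0.0716 for the 3 *Tbx22* starts. The median of all 32851 windows was 0.384. The homeodomain core TAATTA, the kind of motif that DLX proteins bind, occurred in the *Tbx6* window only among these 6 genes, and in 5.29% of all windows. The T-box half-site AGGTGT, searched on both strands, occurred in the *Tbx1* window shown and in no other window of these 6 genes, against 13.7% of all windows. TATAAA, also searched on both strands, occurred in the *Tbx4* and *Tbx6* windows and in 13.6% of all windows. A match is a description of the letters in the window and not of a bound site.

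*Tbx2*, *Tbx3* and *Tbx1* made up nearly all T-box RNA among the 10 genes. *Tbx2* (ENSMUSG00000000093, chromosome 11 of mm10, 85832551 to 85841948, plus strand) had 17419, 20979 and 29468 counts in replicates 1, 2 and 3, or 451, 589 and 782 CPM. Replicate 1 was lowest and replicate 3 highest, and the mean was 608 ± 166 CPM (SD, n = 3). Per length *Tbx2* stood at 168 ± 45.8 CPM per kb, rank 237 of 17213 protein-coding genes with counts.
*Tbx3* (ENSMUSG00000018604, chromosome 5, 119670669 to 119684724, plus strand), the paralog of *Tbx2* and the gene of ulnar-mammary syndrome, had 6857, 5439 and 4359 counts, or 178, 153 and 116 CPM. Its libraries stood in the opposite order to those of *Tbx2*, with replicate 1 highest and replicate 3 lowest. Its mean level was 22.5 ± 4.71 CPM per kb (SD, n = 3), rank 2351 of the same genes.
*Tbx1* (ENSMUSG00000009097, chromosome 16, 18580979 to 18590671, minus strand) had 1161, 632 and 1035 counts, or 30.1, 17.8 and 27.5 CPM. Replicate 2 was lowest for this gene. With the trend on length and GC removed it stood at 35.1, 19.7 and 21.4 CPM, so replicate 2 stayed lowest and the log2 difference of replicate 3 from the other libraries went from 0.25 to -0.30. Its mean of 7.14 ± 1.85 CPM per kb (SD, n = 3) gave it rank 5753.

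Within a library a share does not depend on the scaling between libraries. Per kb of exons, *Tbx2* made up 76.2%, 83.9% and 87.5% of the summed level of the 10 genes in replicates 1, 2 and 3. *Tbx3* made up 16.4%, 11.9% and 7.09%, and *Tbx1* 5.24%, 2.60% and 3.17%. In each library the order was *Tbx2*, then *Tbx3*, then *Tbx1*, as the plot of shares shows.

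**Figure D1:**
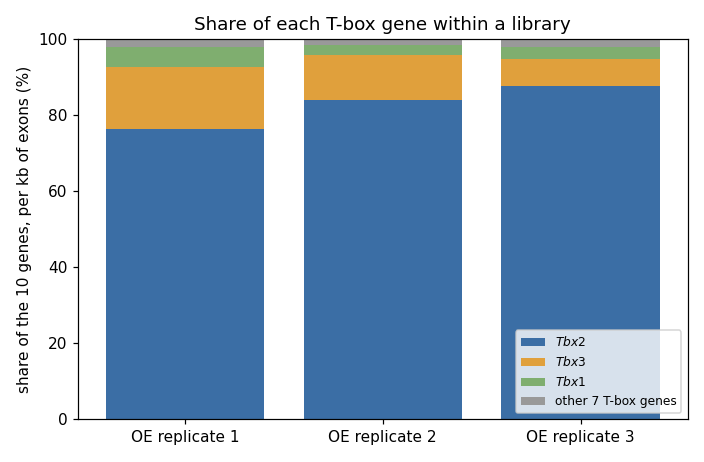
Share of each T-box gene in the summed CPM per kb of exons of the 10 genes (y axis, percent) in the 3 OE libraries (x axis), as stacked bars. *Tbx2* takes 76.2%, 83.9% and 87.5%, and the *Tbx3* band above it takes 16.4%, 11.9% and 7.09%.

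The ratio of *Tbx2* to *Tbx3* counts was 2.54 in replicate 1 (95% exact Clopper-Pearson interval 2.47 to 2.61), 3.86 in replicate 2 (3.74 to 3.97) and 6.76 in replicate 3 (6.55 to 6.98). These intervals do not overlap, and they cover counting error only. Per kb of exons the ratios were 4.64, 7.05 and 12.3. Part of this order ran with transcript length and GC content. The longest *Tbx2* transcript has 3626 bases and a GC content of 63.2%, and on log2 CPM its value in replicate 3 was 0.60 above the mean of the other libraries. Over the 297 tested genes with transcripts over 2000 and up to 4000 bases and a GC content above 60% the median of that difference was 0.56. *Tbx3*, with 4982 bases and 54.2% GC, was 0.51 below the other libraries in replicate 3 (a log2 difference of -0.51), where 3152 genes over 4000 and up to 8000 bases with over 45% and up to 60% GC had a median of -0.32. With a smooth trend on length and GC removed, the ratio of *Tbx2* to *Tbx3* was 2.87, 4.15 and 5.55 in the 3 libraries, so the order stayed and the range narrowed.

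The other T-box genes were present at low levels. Ordered by mean CPM per kb they were *Tbx15* (1.09), *Tbx22* (1.05), *Tbx18* (0.913), *Tbx6* (0.411), *Tbx4* (0.342), *Tbx5* (0.123) and *Tbx20* (0.0978). The ranges of *Tbx2*, *Tbx3* and *Tbx1* did not overlap each other or that of *Tbx15*. From *Tbx15* down to *Tbx20*, each pair of neighbours in the order had overlapping ranges over the 3 libraries, so neighbours are not separated by the spread between libraries. Some pairs further apart were separated, although *Tbx15* overlapped all 6 lower genes. The highest library of *Tbx20* (0.131) lay below the lowest of *Tbx4* (0.198), *Tbx18* (0.304), *Tbx6* (0.316) and *Tbx22* (0.453), and the highest of *Tbx5* (0.216) lay below the lowest of *Tbx18*, *Tbx6* and *Tbx22*. *Tbx4* stood above *Tbx5* in all 3 libraries. The mean of *Tbx5*, 0.576 CPM, was 0.357 CPM with replicate 2 left out and the rest rescaled. Its share per kb of exons was then 0.0311%, below the 0.0392% of *Tbx20*, so the order of these genes depended on that library. With the mean length of protein-coding transcripts in place of merged exons, *Tbx15* stood at 2.697, *Tbx22* at 1.80 and *Tbx18* at 0.920 CPM per kb. *Tbx6* stood at 0.456, *Tbx4* at 0.382, *Tbx20* at 0.310 and *Tbx5* at 0.300, which exchanged the last 2 means. The separations between libraries above are for merged exons. With the other lengths some no longer held: *Tbx5* passed *Tbx4* in replicate 2, and the range of *Tbx20* overlapped those of *Tbx4*, *Tbx18* and *Tbx6*. At least 10 counts in every library were reached by 9 of the 10 genes, against 28.2% of all genes counted, and the exception was *Tbx5*. At least 1 CPM in every library was reached by 5, beside 23.3% of all genes: *Tbx1*, *Tbx2*, *Tbx3*, *Tbx18* and *Tbx22*.

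**Figure D2:**
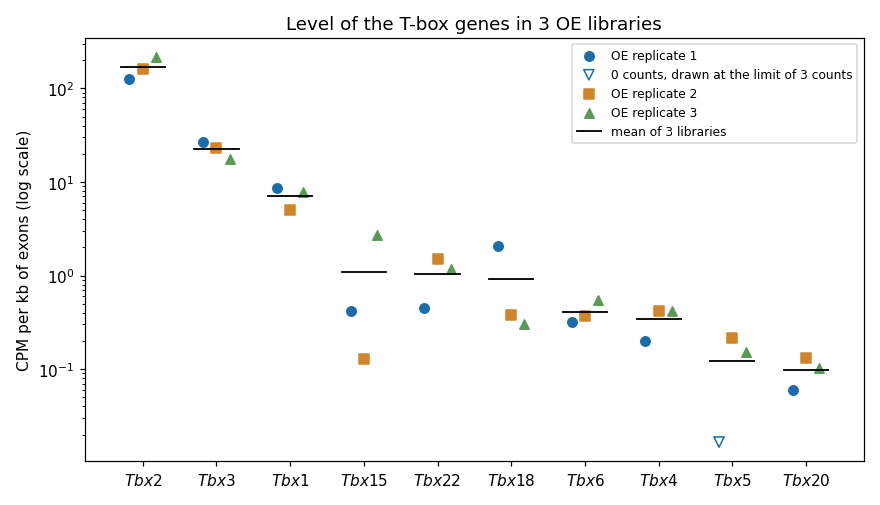
CPM per kb of exons (y axis, log scale) of the 10 T-box genes (x axis, ordered by mean) in the 3 OE libraries, with 1 point for each library and a bar for the mean. *Tbx2*, *Tbx3* and *Tbx1* form separate levels at means of 168, 22.5 and 7.14, while each of the 7 lower genes overlaps its neighbours in the order. The *Tbx15* points run from 0.127 to 2.73 and those of *Tbx20* from 0.0605 to 0.131.

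The spread between libraries was compared with counting noise by a chi-square test of the 3 counts of each gene, adjusted by Benjamini-Hochberg over the 17115 genes whose counts averaged 10 or more. This test compares libraries and not conditions. All 10 T-box genes passed the filter and 9 were beyond counting noise, beside 81.5% of all tested genes, so being called sets no T-box gene apart. The exception was *Tbx6* (ENSMUSG00000030699, chromosome 7, 126781483 to 126785560, plus strand), a factor of paraxial mesoderm, with 22, 24 and 37 counts (adjusted p = 0.112), and its ratio of 1.72 was 1.06 with the trend removed. A range of at least 2-fold between libraries was found for 6 of the 10 genes, beside 34.8% of all tested genes. The median ratio of the highest to the lowest library was 2.13 over the T-box genes and 1.69 over all tested genes, where *Tbx5* and other genes at 0 in a library rank above every finite ratio.
The 6 genes were *Tbx4*, *Tbx5*, *Tbx15*, *Tbx18*, *Tbx20* and *Tbx22*, and all were among the 7 with low levels. The 3 abundant genes had ratios of 1.73 (*Tbx2*), 1.54 (*Tbx3*) and 1.69 (*Tbx1*), which were 1.36, 1.42 and 1.78 with the trend on transcript length and GC content removed. Without replicate 1, 5 genes were beyond counting noise (beside 71.2% of all genes tested then) and 1 gene, *Tbx15*, had a 2-fold range (beside 18.3%). The 4 genes no longer called were *Tbx4*, *Tbx5*, *Tbx18* and *Tbx20*. Without replicate 2 there were 9 genes beyond counting noise (beside 77.7%) and 5 with a 2-fold range (beside 31.2%), and without replicate 3 there were 9 (beside 48.8%) and the same 6 (beside 7.24%). With DESeq2 size factors the counts were 9 (beside 81.4%) and 6 (beside 34.9%), with total counts 9 (beside 81.6%) and 5 (beside 36.7%), and with every gene that had a count 9 (beside 53.4%). A pseudocount of 0.1 CPM, used over those genes, gave 5 with a 2-fold range (beside 30%). With the trend on transcript length and GC content removed, 5 genes had a 2-fold range, beside 21.8% of all genes.

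**Figure D3:**
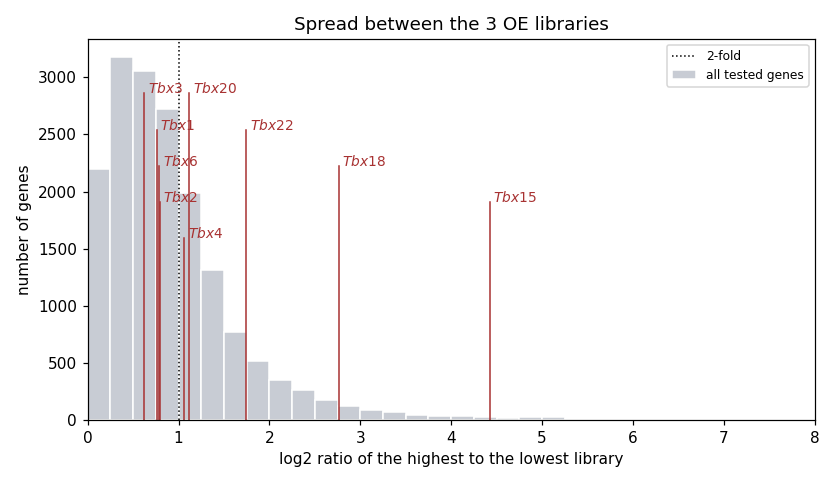
Number of tested genes (y axis) by the log2 ratio of the highest to the lowest of the 3 OE libraries (x axis), with lines for 9 T-box genes and a dotted line at 2-fold. *Tbx5* and other genes at 0 CPM in a library have no ratio and are not drawn. *Tbx15* lies far to the right at a ratio of 21.5 and *Tbx18* at 6.78, while *Tbx1*, *Tbx2*, *Tbx3* and *Tbx6* lie below 2-fold.

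*Tbx15* (ENSMUSG00000027868, chromosome 3, 99240381 to 99354259, plus strand), a mesenchymal factor of limb and dorsal skin, had the largest ratio between libraries of the 9 genes with counts in all 3. No ratio could be given for *Tbx5*, which was at 0 in replicate 1. It had 60, 17 and 386 counts in replicates 1, 2 and 3, or 1.55, 0.478 and 10.2 CPM. Replicate 3 stood apart, and the mean of 4.09 ± 5.36 CPM (SD, n = 3) was 1.05 with that library left out and the rest rescaled. The ratio of 21.5 between the highest and the lowest library was reached or passed by 1.09% of all tested genes. With the trend on length and GC removed the ratio was 22.4.
*Tbx18* (ENSMUSG00000032419, chromosome 9, 87702800 to 87731260, minus strand), the closest relative of *Tbx15* and a factor of somite, limb and heart mesenchyme, had 375, 63 and 54 counts, or 9.72, 1.77 and 1.43 CPM. Here replicate 1 was the high library, and the mean of 4.31 ± 4.69 CPM (SD, n = 3) was 1.56 with it left out and the rest rescaled. Its ratio of 6.78 was reached by 3.43% of tested genes, and it was 4.92 with the trend removed. The pair peaked in different libraries. The count ratio of *Tbx18* to *Tbx15* was 6.25 in replicate 1 (exact interval 4.75 to 8.35), 3.71 in replicate 2 (2.14 to 6.76) and 0.140 in replicate 3 (0.103 to 0.186).
A gene on the other strand, *D030062O11Rik*, shares 970 exonic bases with *Tbx18* (20.6% of them), and it had 0, 3 and 0 counts. The library kit named in the labels does not mark strand, so reads from the shared bases cannot be assigned to either gene.
Among 11279 protein-coding genes averaging 100 counts or more, the gene whose centred log2 CPM lay nearest to that of *Tbx15* in the 3 libraries was *Epha8*, an ephrin receptor, at a Euclidean distance of 0.878 and with 1.63, 0.674 and 6.03 CPM. *Slc4a5* (distance 1.29) and *Mgll* (1.51) followed. Likeness over 3 libraries is a description only.

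*Tbx22* (ENSMUSG00000031241, chromosome X, 107667964 to 107688978, plus strand) had 97, 300 and 244 counts, or 2.51, 8.43 and 6.48 CPM (mean 5.81 ± 3.01, SD, n = 3). Replicate 1 was lowest by a wide margin, and its log2 CPM lay 1.54 below the other libraries (a difference of -1.54). The GC content of its longest transcript is 35.3% over 5217 bases. Among 1526 tested genes over 4000 and up to 8000 bases with at most 45% GC the median difference of replicate 1 was 0.50, the opposite direction, and with the trend removed *Tbx22* differed by -2.01 and stood at 2.07, 7.47 and 9.27 CPM, with replicate 3 in place of replicate 2 as the highest. *Tbx22* is X-linked and replicate 1 is the library with *Xist*, so sex cannot be told apart from the other differences of that library. A list of 6 genes of palatal shelf growth was counted in the same libraries. *Mn1*, which acts upstream of *Tbx22* in the palate, was at 81.6, 78.8 and 80.5 CPM, and *Pax9* at 11.4, 14.8 and 12.5 CPM. Counting noise was exceeded by 4 of the 6 genes (beside 81.5% of all tested genes), and 3 had a 2-fold range (beside 34.8%). *Osr1* and *Osr2*, mesenchymal palate factors, were highest in replicate 3 like *Tbx15*, at 3.50, 4.89 and 19.1 CPM and at 2.15, 2.30 and 6.90 CPM. *Shox2* was highest in replicate 1 like *Tbx18*, at 10.7, 3.60 and 2.60 CPM. These 3 were singled out after their values were seen.

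*Tbx5*, *Tbx4* and *Tbx20* were also lowest in replicate 1. *Tbx5* (ENSMUSG00000018263, chromosome 5, 119832668 to 119885219, plus strand), a factor of forelimb, heart and dorsal retina, had 0, 36 and 27 counts. Set against the limit of 3 counts in replicate 1, it was 13.0-fold higher in replicate 2 (1.01 CPM) and 9.22-fold higher in replicate 3 (0.717 CPM). These folds leave out the counting error of the 36 and 27 counts (exact Poisson intervals 25.2 to 49.8 and 17.8 to 39.3), so they are not lower bounds. *Tbx4* (ENSMUSG00000000094, chromosome 11, 85886422 to 85916097, plus strand), the hindlimb factor, had 26, 50 and 53 counts, with exact Poisson intervals of 17.0 to 38.1, 37.1 to 65.9 and 39.7 to 69.3. *Tbx20* (ENSMUSG00000031965, chromosome 9, 24718138 to 24774303, minus strand), a factor of heart and cranial motor neurons, had 28, 56 and 46 counts, with intervals of 18.6 to 40.5, 42.3 to 72.7 and 33.7 to 61.4. As counts, not scaled to library size, the interval in replicate 1 overlapped that of replicate 2 for *Tbx4* and that of replicate 3 for *Tbx20*. After scaling, the 2 intervals of *Tbx4* lay just apart and those of *Tbx20* still overlapped. Each gene was called by the chi-square test over the 3 libraries (adjusted p = 0.00387 and 0.00412). With scaling to total counts the range of *Tbx4* was below 2-fold, and with the trend removed it was 1.96. For *Tbx20* removing the trend took the ratio from 2.17 to 3.18 and moved the highest library from replicate 2 to replicate 3.

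**Figure D4:**
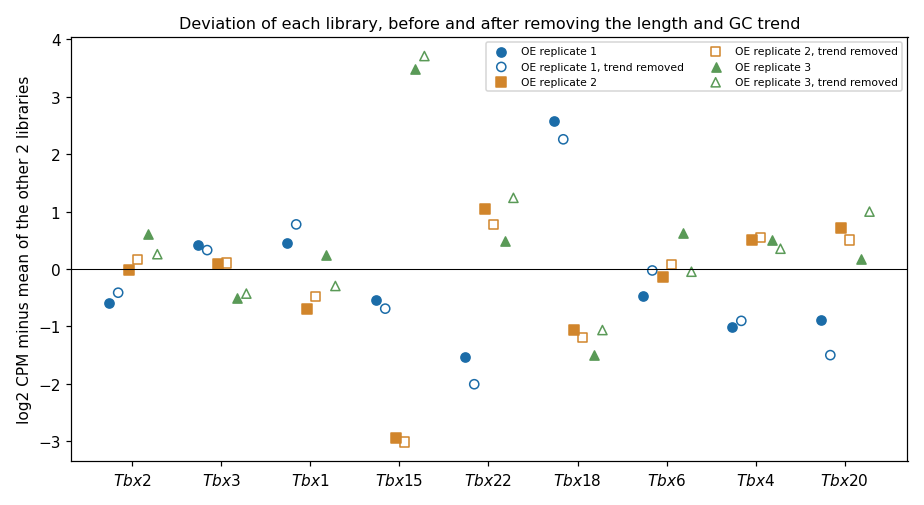
Log2 CPM of each OE library minus the mean of the other 2 libraries (y axis) for 9 T-box genes (x axis), before (filled) and after (open) removing the trend on transcript length and GC content. *Tbx15* in replicate 3 and *Tbx18* in replicate 1 stay high after removal, *Tbx22* in replicate 1 moves from -1.54 to -2.01, and the points of *Tbx6* come close to 0.

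Markers of other cell types moved between the libraries too, and in bulk tissue fewer cells of a type and less RNA per cell cannot be told apart. The optic vesicle and forebrain list (*Pax6*, *Rax*, *Six3*, *Six6* and *Lhx2*) summed to 21.0, 140.4 and 131 CPM in replicates 1, 2 and 3. All 5 genes were lowest in replicate 1, and none was at 0 in any library. In replicate 1 *Tbx5* was at 0 and *Tbx2*, *Tbx4*, *Tbx20* and *Tbx22* were lowest, as was *Tbx6*, within counting noise. In the neural crest list, 4 of 7 genes were lowest in replicate 1, among them *Alx1* (21.4, 57.8 and 47.8 CPM), a factor of frontonasal mesenchyme. The list did not move as one, and 2 genes, *Prrx1* and *Pdgfra* (91.5, 81.3 and 76.1 CPM), were highest in replicate 1.
The neuron list summed to 273, 24.3 and 35.9 CPM, with all 9 genes highest in replicate 1, the library with the most *Tbx18*. The epithelium list summed to 413, 259 and 245 CPM, and 6 of its 8 genes were highest in replicate 1, where *Tbx1* and *Tbx3* were highest. The cranial muscle list (*Tcf21*, *Msc*, *Myf5*, *Myod1*, *Myog*, *Pax7* and *Myf6*) summed to 10.3, 5.03 and 7.27 CPM, in the same order of libraries as *Tbx1*, although 3 of its 7 genes were highest in replicate 1 and 4 in replicate 3.
In replicate 3, where *Tbx15* was highest, the pigment cell list summed to 163 CPM against 6.81 and 38.4 in replicates 1 and 2, with 6 of 7 genes highest there. *Tyr* and *Tyrp1* were at 0 in replicate 1. The paraxial mesoderm list summed to 12.9, 22.3 and 48.3 CPM, most of it *Tcf15* (6.89, 14.6 and 37.5 CPM). The ratio of 5.43 between the highest and lowest library of *Tcf15* was 2.54 with the trend on length and GC removed. *Msgn1*, the presomitic factor that acts with *Tbx6*, was at 0 in every library. The heart muscle list summed to 1.61, 2.02 and 3.08 CPM, with *Nkx2-5*, its defining gene, at 1, 2 and 0 counts, and *Nppa* at 0, 4 and 1. Endothelium summed to between 268 and 348 CPM. Red blood cells summed to 1950, 3639 and 4267 CPM in replicates 1, 2 and 3, and 5 of the 6 genes were lowest in replicate 1, as in the optic list. The part of these cell types in the T-box values was not tested.

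**Figure D5:**
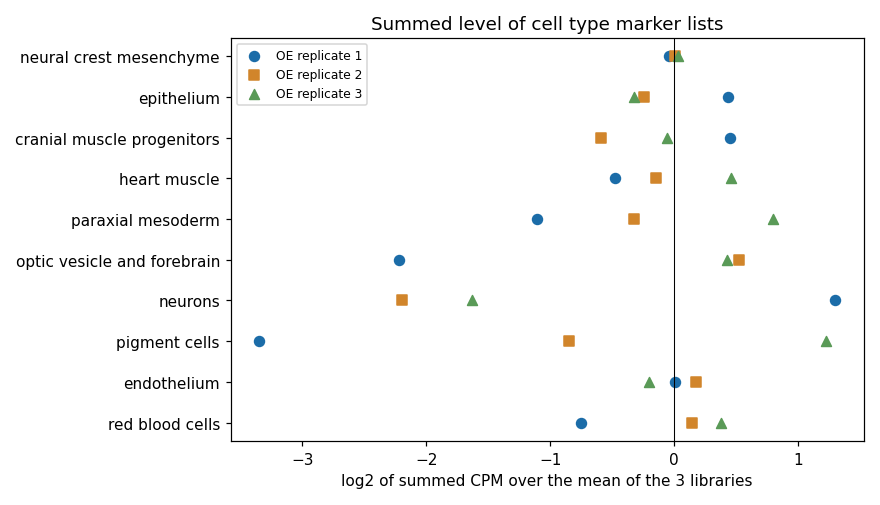
Log2 of the summed CPM of each cell type marker list over its mean of the 3 OE libraries (x axis), by list (y axis), with 1 point for each library. Neural crest mesenchyme sums lie close together, although *Prrx1* fell (629, 582 and 419 CPM) and *Twist1* rose (317, 342 and 464 CPM) from replicate 1 to replicate 3. Replicate 1 lies low for optic vesicle and forebrain (21.0 CPM) and high for neurons (273 CPM), and replicate 3 lies high for pigment cells (163 CPM).

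*Tbx2*, *Tbx4*, *Tbx3* and *Tbx5* lie in 2 linked pairs that arose by duplication of an ancestral pair. *Tbx4* starts 44473 bp beyond the end of *Tbx2* on chromosome 11, and *Tbx5* starts 147943 bp beyond the end of *Tbx3* on chromosome 5. In each pair the member of the *Tbx2* subfamily was far above the limb factor beside it. In CPM per kb, *Tbx2* was at 628, 394 and 521 times the level of *Tbx4* in the 3 libraries, and *Tbx3* at 107 and 114 times that of *Tbx5* in replicates 2 and 3. Of the other protein-coding neighbours, *Bcas3*, 6492 bp before *Tbx2*, was at 13.5, 14.8 and 19.6 CPM, *Brip1*, beyond *Tbx4*, at 18.9, 16.3 and 12.1 CPM, *Med13l*, before *Tbx3*, at 42.1, 37.2 and 21.6 CPM, and *Rbm19*, beyond *Tbx5*, at 50.3, 65.3 and 79.0 CPM. A pair of noncoding neighbours of *Tbx3* are named for it. *Tbx3os1*, on the other strand and sharing 115 exonic bases with *Tbx3* (1.74% of them), had 244, 306 and 606 counts, or 6.32, 8.60 and 16.1 CPM. *Tbx3os2*, 370 bp beyond its end, had 50, 54 and 78 counts. Both were highest in replicate 3, where *Tbx3* was lowest. Replicate 3 had higher values for short and GC-rich transcripts in general, and no value with that trend removed is given for either noncoding gene. *Tbx6* shares no exonic base with its neighbours *Ppp4c*, 305 bp away, and *Ypel3*, 968 bp away, and these had 8821, 9937 and 16220 counts and 664, 763 and 1753 counts. The mean of *Tbx6* itself was 0.742 ± 0.214 CPM (SD, n = 3).

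The remaining T-box genes of the mouse had 20 counts or fewer in every library with the exception of *Mga*, which encodes a large protein with a T-box and a MAX-binding domain. *Mga* had 3680, 2821 and 1547 counts, or 95.3, 79.3 and 41.1 CPM. Its longest transcript has 13931 bases, and with the trend on length and GC removed it stood at 69.8, 73.5 and 60.5 CPM, a ratio of 1.22 between the highest and the lowest library in place of 2.32. *T* (Brachyury), the notochord and mesoderm factor, had 20, 10 and 18 counts and was not beyond counting noise. *Tbr1* had 1, 9 and 15 counts, *Tbx21* 4, 3 and 10, *Tbx19* 3, 0 and 1, and *Tbx10* 0, 0 and 1. *Eomes* was at 0 in all libraries.

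Genes known to act with T-box factors were counted in the same libraries, and the CPM values given for them are not corrected for length. Of 10 genes of BMP signalling and response, 8 were beyond counting noise (beside 81.5% of all tested genes) and 1, *Bmp2* (3.21, 1.83 and 0.982 CPM), had a 2-fold range (beside 34.8%). Those with the highest CPM were *Id3* (262, 275 and 287 CPM), *Msx1* (193, 218 and 277), *Id1* (160, 159 and 196) and *Id2* (146, 160 and 132). *Bmp4*, a BMP ligand of facial mesenchyme and epithelium, was at 35.0, 43.3 and 46.3 CPM, a ratio of 1.33 that was 1.16 with the trend removed. Of 7 genes known to act with *Tbx1*, all were beyond counting noise (beside 81.5%) and 1, *Crkl*, had a 2-fold range (beside 34.8%), which was 1.46 with the trend on length and GC removed. Those with the highest CPM were *Chd7*, a chromatin remodeller (201, 183 and 126 CPM), *Crkl*, an adaptor protein (100, 87.3 and 49.98), *Eya1* (82.8, 69.8 and 50.1) and *Foxc1*, a forkhead factor (64.9, 50.4 and 52.8). Of 10 corepressor genes, all passed the same test (beside 81.5%) and 3, *Aes*, *Tle2* and *Ncor1*, had a 2-fold range (beside 34.8%). With the trend removed their ratios were 3.26, 2.002 and 1.32. *Hdac2* (352, 350 and 333 CPM), *Aes* (97.2, 184 and 473), *Hdac1* (253, 248 and 194) and *Tle3* (215, 205 and 167), of the deacetylase and Groucho families, had the highest CPM of that list.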

How the data were processed

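Paired-end reads of 150 bases were mapped to mm10 with STAR 2.7.3a by the authors, whose processing notes also name HTSeq 0.12.4. The strand setting and annotation release are not given in the sources used here. The deposited values are raw counts per gene, 1 library per file. Rows naming no gene held 14.2%, 15.7% and 16.4% of counted reads and were left out. Of 55401 identifiers, 55141 matched GENCODE M21, without regard to version.

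CPM used TMM factors (edgeR 4.0.16) of 1.06, 1.01 and 0.940, and exonic length was that of merged exons. The planned comparison was between libraries: a chi-square test of each gene's counts against scaled library sizes, for genes averaging 10 counts or more, with Benjamini-Hochberg adjustment at 0.05. The trend on the length and GC content of the longest transcript was fitted with mgcv 1.9.3 on log2 CPM (prior count 2) and was added after the data were seen. DESeq2 1.42.0 gave alternative size factors. Steps were tested on simulated data. Where a symbol belonged to several genes the lowest identifier was used. Named were all members, the other T-box genes, up to 4 most abundant genes of each list, neighbours, and the 3 genes most like *Tbx15*, the member with the largest ratio at a mean count of at least 100. Further list genes were named after their values were seen. Some genes of the pathway and marker lists are not reported here and were left out of the list sums and counts. Members and lists were chosen with earlier results of these data known. Tables were made with pandas 2.3.3 and intervals with scipy 1.17.1 (Python 3.11.15), and models were run in R 4.3.3.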

Additional observations from a re-analysis of the deposited data

How the results depend on the processing

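For 24 results 123 alternatives were computed. Of these, 114 moved the value by less than 1 SD between replicates or a count by less than 1.5 times, and none reversed it. That tally says little about single genes. Levels and shares cannot reverse, and leaving out 1 of 3 libraries cannot move their mean by as much as 1 SD. Those alternatives could only be counted as unmoved, as was *Tbx15*, whose mean went from 4.09 to 1.05 CPM without replicate 3. Leaving out each replicate in turn gave 5 to 9 genes beyond counting noise (9 with all libraries), 1 to 6 with a 2-fold range (6), 9 to 10 detected (9), a median level over the 10 genes of 3.39 to 5.02 CPM (4.2), and a *Tbx2* share of 80.0% to 85.7% (82.5%). The lowest counts beyond counting noise and with a 2-fold range came without replicate 1. With at least 1 CPM in every library as the limit, 5 genes were detected. With the mean length of protein-coding transcripts, the *Tbx2* share was 75.3%, and the shares of *Tbx1*, *Tbx5*, *Tbx15*, *Tbx20* and *Tbx22* also moved by more than 1 SD, with *Tbx1* at 7.08% against 3.67%. The alternative's own lengths set this change. Other scalings gave 9 and 9 genes beyond counting noise and 6 and 5 with a 2-fold range, and removing the trend on length and GC content gave 5. No paired analysis was possible because the libraries form 1 group. Depth limits *Tbx5*, *Tbx6*, *Tbx4* and *Tbx20*, whose mean counts were 21, 27.7, 43 and 43.3.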
